A study of Mus musculus with 8 samples.

Results

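The genes described here are 35 genes of cholesterol and fatty acid synthesis, measured in mouse macrophages at rest and after IL-4. They were chosen by name. They comprise enzymes of the sterol path (17 genes), the proteins that control it (6 genes) and enzymes of fatty acid synthesis (12 genes). The rule used no measured value, but earlier results of these data were known when the genes were chosen. All 35 were found among the 23354 gene symbols of the deposited tables, each in a single row, and all 35 were among the 10934 genes that reached 1 FPKM in 2 or more libraries, which were tested. FPKM scales the fragments of a gene to the length of its transcript and to the fragments of the library, so that levels of genes of different length can be set side by side.

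Cholesterol is built from acetyl-CoA through mevalonate, farnesyl diphosphate and squalene to lanosterol, and a last series of enzymes turns lanosterol into cholesterol. The genes of this path are targets of SREBP2, encoded by Srebf2, while SREBP1, encoded by Srebf1, acts more on fatty acid synthesis. When membranes hold much sterol, the Insig proteins keep Scap and its SREBP cargo in the endoplasmic reticulum. When sterol is low, Scap escorts the SREBP to the Golgi, where it is cut and freed to enter the nucleus. Macrophages take up much cholesterol from dead cells and lipoproteins, and they also make their own.

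Bone marrow of C57BL/6J mice aged 8 weeks, males per the growth protocol, was turned into macrophages with L929-conditioned medium over 7 days. By title, the cells carried a floxed Ern1 gene (Ern1f/f) or the floxed gene plus a Cre recombinase driven by Lyz2, a gene of the myeloid lineage (Ern1f/fLyz2-Cre, here called Cre cells). Ern1 encodes IRE1α, a sensor of endoplasmic reticulum stress. Cells were left as controls or given IL-4, the cytokine of alternative activation, at 20 ng/ml for 24 hours. The 4 groups thus are Ern1f/f control, Ern1f/f IL-4, Cre control and Cre IL-4, each with 2 libraries, numbered 1 and 2 in the titles. All groups share the floxed gene, and none without it was measured. The 4 libraries numbered 1 are called set 1 and those numbered 2 are called set 2. In the labels' genotype field every library of set 1 is Ern1f/f and every library of set 2 is Ern1f/fLyz2-Cre, so that field and title disagree for 4 of the 8 libraries. The titles define the groups here, and under the genotype field the sets and the genotypes cannot be told apart.

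The FPKM of a library summed to 532768 to 612334, and the width of the authors' confidence intervals implied 21500000 to 37900000 fragments, fewest in Cre control 2 and most in Cre IL-4 1. No pair of libraries was identical. The labels do not say whether the libraries of a group came from separate mice, so p-values measure the spread between these libraries, which may be technical. All 8 macrophage markers passed the filter, with a summed level of 4108 FPKM (Cre IL-4 2) to 21020 FPKM (Ern1f/f control 1). Lyz2 alone was 1572 and 18110 FPKM in these libraries, so the range of the sum is mostly that of Lyz2. Lyz2, whose locus carries the Cre, was lower in every Cre library than in the Ern1f/f library of like treatment and set. The gap was smaller in set 1, at 10950 against 18110 FPKM in controls and 5780 against 8901 with IL-4. In set 2 it was 2171 against 17420 FPKM in controls and 1572 against 11960 with IL-4. The Cre libraries of the 2 sets were thus unlike at this gene, and the reason was not tested. Markers of B cells and of T or NK cells were each below 1 FPKM in sum in every library. Of the neutrophil markers 2 of 7 passed the filter, with Retnlg at 0 and a sum of 6.04 to 39.5 FPKM. Of the adipocyte markers 1 of 6 passed, with Lep at 0 and a sum of 208.9 to 387.7 FPKM. Nearly all of that sum thus came from 1 gene, and it does not measure the list as a whole. Of 9 fibroblast markers 8 passed, and their sum was higher in set 1 (141.1 to 726.5 FPKM, highest in Cre control 1) than in set 2 (10.93 to 79.01 FPKM). The level of Ern1 was 9.11 to 11.5 FPKM in Ern1f/f and 7.43 to 14.3 FPKM in Cre libraries. A gene-level value does not check a deletion of some exons.

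The levels of the 35 genes spanned a wide range. Fdps, which makes farnesyl diphosphate, had the highest mean with 43.7 FPKM over the 8 libraries, followed by Acly, which makes cytosolic acetyl-CoA from citrate (40.7 FPKM), and Srebf2 (30.6 FPKM). The lowest means belonged to Elovl6, an elongase of saturated fatty acids, with 0.716 FPKM, and to the desaturase gene Scd1 with 1.50 FPKM. In the order by median, the range over the 8 libraries overlapped between every gene and the next. The authors' confidence interval around a member's FPKM had a half-width of between 2.21% (Acly in Cre IL-4 1) and 29.2% (Fads2 in Cre control 2) of its value.

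**Figure D1:**
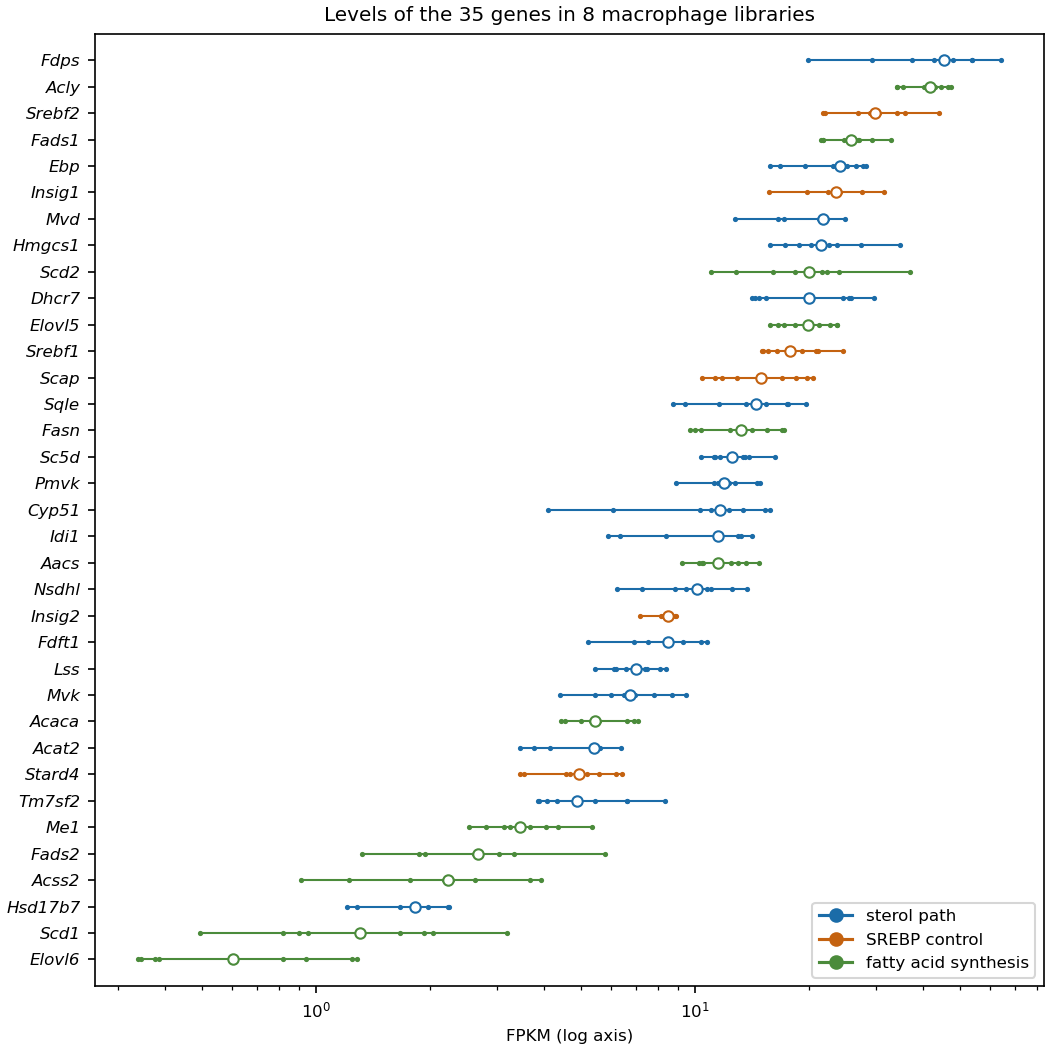
FPKM of the 35 genes on a log axis, ordered by their median over 8 libraries. Each dot is a library, the open circle is the median and the line runs from the lowest to the highest library. Colours mark the sterol path, the control genes and fatty acid synthesis; Fdps, Acly and Srebf2 stand at the top by mean, and Elovl6 and Scd1 have the lowest levels.

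With IL-4 most sterol path genes stood above their controls in every pair of libraries, Dhcr7 with the largest mean of the 4 pairs though not in Cre cells of set 2, and the enzymes of fatty acid synthesis stood on both sides. In 12 of the 17 sterol path genes the IL-4 library was above its control in all 4 pairs of the same genotype and set. The same held for 1 of 6 control genes, for 2 of 12 fatty acid genes and for 17.0% of all genes tested. The median log2 difference, averaged over genotypes, was 0.40 for the sterol path, 0.10 for the control genes and 0.02 for fatty acid synthesis, against -0.03 for all genes. Differences are on the log2(FPKM + 1) scale, which understates the change of low genes. Summed neutrophil markers moved with the same comparison: they were lower with IL-4 in all 4 pairs, at 21.2 to 39.5 FPKM in controls and 6.04 to 20.2 FPKM with IL-4. Summed fibroblast markers were lower with IL-4 in set 1 (281.3 to 141.1 FPKM in Ern1f/f and 726.5 to 342.2 in Cre cells) and higher in set 2 (12.6 to 31.2 and 10.9 to 79.0). The part of either in the differences of the 35 genes was not tested.

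Calls are from limma, where a gene passed if its p, adjusted by Benjamini-Hochberg over all genes tested, was below 0.05. Averaged over genotypes, IL-4 against control called 0.841% of all genes, 0.668% in the higher direction, and a single member, Dhcr7. With the replicate number as a block, which removes the shift between the sets, 12.7% of all genes were called (5.88% higher and 6.86% lower) and 7 members were. With 75th percentile scaling the same fit called 9 members, 8 of them higher, and 762 genes higher against 728 lower, in place of 643 against 750. The members called higher with the block were Hmgcs1, Idi1, Fdps, Sqle, Nsdhl and Dhcr7, which are 6 of the 17 sterol path genes. Acss2 was the member called lower. Leaving out 1 library changed these counts. With the block, 9 members were called without Cre control 1 and 4 without Cre control 2. There were 3 without Cre IL-4 1 and 2 without Ern1f/f IL-4 2, and Dhcr7 was the sole member without Ern1f/f control 1, Ern1f/f IL-4 1, Ern1f/f control 2 or Cre IL-4 2. Without the block no member was called once any library was left out. In bulk RNA, more RNA per cell and more cells of a type cannot be told apart.

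Dhcr7, which reduces the last double bond to give cholesterol, was higher by a similar amount in all 4 pairs. It stood at 14.2 and 14.7 FPKM in Ern1f/f controls against 24.5 and 25.8 after IL-4, and 15.4 and 14.4 in Cre controls against 25.5 and 29.6 after IL-4, set 1 being given first. All 4 IL-4 libraries lay above all 4 controls, with no overlap, and the sets lay close together. Dhcr7 (chromosome 7, 143823167 to 143848410, mm10) rose by 0.80 ± 0.09 (SE) with an adjusted p of 0.0199 in the fit without the block. The 4 pairs gave log2 differences of 0.75 and 0.77 in Ern1f/f cells and 0.70 and 0.99 in Cre cells. Taken alone, in the fit with the block, Ern1f/f cells gave 0.76 ± 0.11 (SE) and Cre cells 0.84 ± 0.11 (SE). Both passed with the block (adjusted p = 0.0285 and 0.0179, where 2.12% and 3.32% of all genes passed, made up of 1.26% and 1.79% higher and 0.86% and 1.53% lower) and neither without it (adjusted p = 0.173 and 0.108). Without the block limma called 0 of all genes in Ern1f/f cells, with 673 at an unadjusted p below 0.05, and 6 (0.0549%) in Cre cells. With the block, the call in Ern1f/f cells was lost without any library other than Cre control 1 or Cre control 2 (adjusted p of 0.0585 to 0.206), and the call in Cre cells was lost without any of the 4 Cre libraries (0.0682 to 0.116).

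Among the early enzymes, Hmgcs1 condenses acetyl-CoA and acetoacetyl-CoA into HMG-CoA. Its level was 17.2 and 15.8 FPKM in Ern1f/f controls against 23.6 and 27.4 after IL-4, and 20.3 and 18.8 in Cre controls against 22.6 and 34.8 after IL-4. Each IL-4 library was above its own control, and all 4 were above every control, with the widest gap in Cre cells of set 2. Hmgcs1 (chromosome 13, 119690462 to 119708077, mm10) differed by 0.55 ± 0.13 (SE), with an adjusted p of 0.0445 with the block and 0.197 without it. Idi1, the isomerase of the isoprenoid building block, was at 8.38 and 6.34 FPKM in Ern1f/f controls against 13.0 and 11.4 after IL-4, and 11.7 and 5.89 in Cre controls against 13.2 and 14.2 after IL-4. Its IL-4 libraries were above their own controls, but the Cre control of set 1 lay above the Ern1f/f IL-4 library of set 2. For Idi1 (chromosome 13, 8885606 to 8892396, mm10) the difference was 0.66 ± 0.15 (SE), called with the block (adjusted p = 0.0397) and not without it (0.245). Acat2, Mvk, Pmvk and Mvd, which supply acetoacetyl-CoA and carry mevalonate to isopentenyl diphosphate, had differences of 0.37, 0.25, 0.27 and 0.40. None of these was called, and Pmvk was not above its control in Ern1f/f cells of set 2 (-0.01).

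Fdps (chromosome 3, 89093588 to 89101967, mm10) joins these units into farnesyl diphosphate, the branch point to sterols and to lipid anchors of proteins. Fdps was measured at 37.5 and 29.3 FPKM in Ern1f/f controls against 53.9 and 42.8 after IL-4, and 48.1 and 19.9 in Cre controls against 64.0 and 53.8 after IL-4. The Cre control of set 2 was the lowest library and the Cre IL-4 library of set 1 the highest, and controls and IL-4 libraries overlapped through the set 1 Cre control. Fdps differed by 0.71 ± 0.17 (SE) (adjusted p = 0.0445 with the block, 0.351 without). Sqle (chromosome 15, 59315092 to 59331193, mm10), the squalene epoxidase and a rate-limiting step, read 11.6 and 9.43 FPKM in Ern1f/f controls against 17.5 and 13.6 after IL-4, and 15.4 and 8.74 in Cre controls against 17.6 and 19.6 after IL-4. Its Cre control of set 1 was above the Ern1f/f IL-4 library of set 2, so the treatments overlapped between sets but not within a set. The difference of Sqle was 0.58 ± 0.14 (SE) (adjusted p = 0.0457 with the block, 0.269 without). Fdft1, which makes squalene, and Lss, which closes it to lanosterol, had differences of 0.44 and 0.25 and were not called (adjusted p = 0.0662 and 0.168 with the block).

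After lanosterol, the enzymes differed more among themselves. Cyp51, the lanosterol demethylase, was at 11.0 and 6.08 FPKM in Ern1f/f controls against 15.8 and 10.3 after IL-4, and 13.4 and 4.09 in Cre controls against 15.2 and 12.3 after IL-4. Its Cre control of set 1 was above both set 2 libraries with IL-4, and the widest gap was between the Cre libraries of set 2. Cyp51 (chromosome 5, 4080674 to 4104697, mm10) differed by 0.68 ± 0.19 (SE) and missed the threshold with the block (adjusted p = 0.0635). Nsdhl, which removes methyl groups from the sterol ring, was at 8.84 and 7.25 FPKM in Ern1f/f controls against 10.7 and 11.1 after IL-4, and 9.44 and 6.24 in Cre controls against 12.6 and 13.7 after IL-4. Each IL-4 library was above its own control and above every control of both sets. Nsdhl (chromosome X, 72918521 to 72958528, mm10) differed by 0.55 ± 0.12 (SE) (adjusted p = 0.0324 with the block, 0.177 without). Tm7sf2, a sterol reductase, and Sc5d, a sterol desaturase, had mean differences of -0.11 and -0.01 with pairs of both signs. The keto-reductase gene Hsd17b7 and the isomerase gene Ebp had 0.17 each, and 3 of their 4 pairs were positive.

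**Figure D2:**
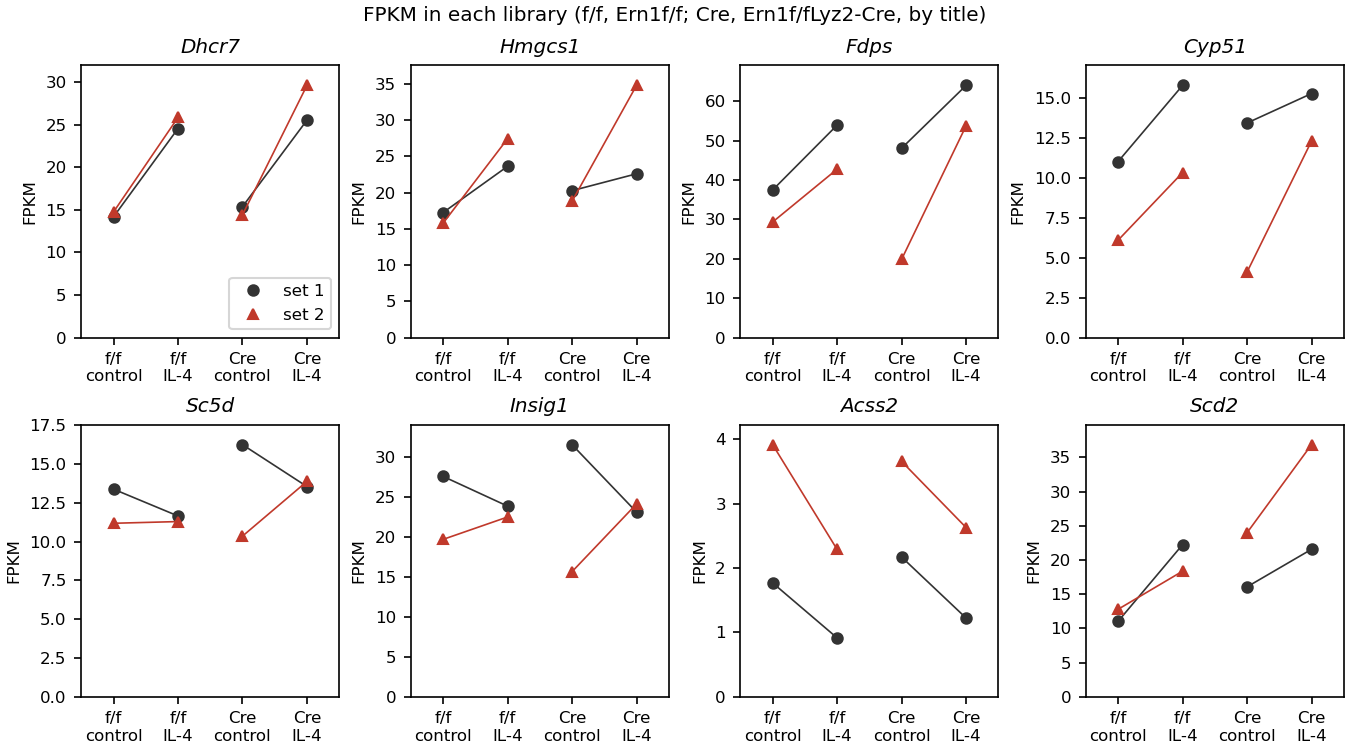
FPKM of 8 of the genes in each library, with lines joining control and IL-4 of the same titled genotype (f/f, Ern1f/f; Cre, Ern1f/fLyz2-Cre) and set (circles, set 1; triangles, set 2). Dhcr7 goes from 14.2 to 15.4 FPKM in controls to 24.5 to 29.6 FPKM with IL-4 in both sets, Acss2 is lower with IL-4 and higher in set 2, and Sc5d and Insig1 slope down in set 1 and not in set 2.

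The size of the difference varied by library pair. For the sterol path the median was 0.38 and 0.32 in Ern1f/f cells of set 1 and set 2, 0.16 in Cre cells of set 1 and 0.75 in Cre cells of set 2. Over all genes the same medians were -0.0014, -0.07, -0.07 and 0.04. The Cre control of set 2 held the lowest level of 15 of the 17 sterol path genes and of 22 of all 35 genes. The same count was not made over all genes tested. Against the Cre control of set 1, its median log2 difference was -0.60 for the sterol path and -0.17 for all genes. It was also the library with the fewest implied fragments, and the part of depth was not tested. Summed over the sterol path, control libraries held 208.2 and 174.1 FPKM in Ern1f/f cells and 252.7 and 149.3 in Cre cells, set 1 first. The IL-4 libraries held 268.9 and 238.3 FPKM in Ern1f/f and 294.7 and 289.2 in Cre cells. The IL-4 sums were thus closer to each other than the control sums.

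**Figure D3:**
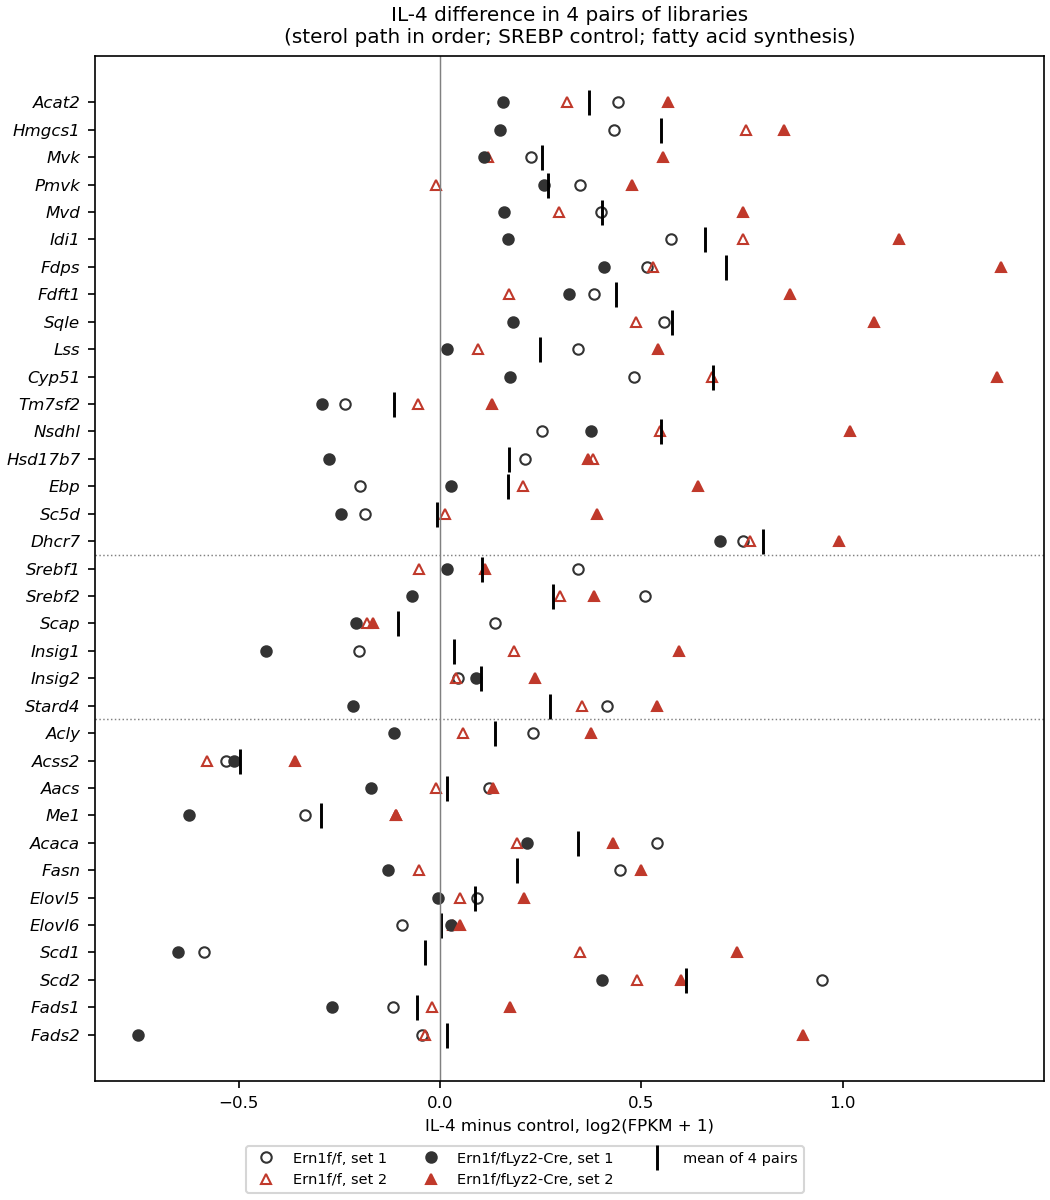
IL-4 minus control on the log2(FPKM + 1) scale for the 35 genes, from the first sterol enzyme at the top through the control genes to fatty acid synthesis. Circles are set 1 and triangles set 2, open for Ern1f/f and filled for Cre cells by title, and the bar is the mean of the 4 pairs. All 4 pairs are above 0 for 12 of 17 sterol path genes, the filled triangles lie farthest right for most of them, and Acss2 and Me1 are below 0 in all 4.

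Fitted within each set, the IL-4 difference called 2 members in set 1 and 8 in set 2. In this fit the titled genotypes of a set serve as its replicates, as they would under the genotype field. In set 1, where 20.7% of all genes were called (8.58% higher and 12.1% lower), Dhcr7 was higher (0.72 ± 0.09 (SE), adjusted p = 0.00200) and Acss2 lower. In set 2, where 11.6% of all genes were called and 5.3% in the higher direction, Hmgcs1, Idi1, Fdps, Sqle, Cyp51, Nsdhl and Dhcr7 were higher and Acss2 lower. Cyp51 had the largest difference there, 1.03 ± 0.17 (SE) (adjusted p = 0.00939), against 0.33 ± 0.17 (SE) in set 1. Fewer members were called in set 2 without Cre control 2, Cre IL-4 2 or Ern1f/f control 2. In set 1 fewer were called without Ern1f/f IL-4 1 or Cre control 1. Each of these fits leaves a single control or IL-4 library in that set. The share of all genes called in them was not computed, so the falls cannot be read as particular to the members. The difference between the sets in the response was itself tested: it called 0.969% of all genes and no member, with a smallest adjusted p among members of 0.110 (Insig1) and 7 members at an unadjusted p under 0.05.

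Since 6 sterol path genes were called together with the block, the promoters of these genes and of Acss2 were looked up in the promoters of RefSeq (GRCm38.p6, 250 bases before to 50 after the start). Of the 35 genes, 28 had an entry and Fdps, Fdft1, Sqle, Stard4, Scd1, Scd2 and Fads1 had none. The sequences shown are those at the start nearest the authors' locus for the called genes that had an entry. They are written 5′ to 3′ along the gene, with CCAAT, on either strand, and the sterol regulatory element TCACNCCAC, on either strand, in capitals. CCAAT is the letter pattern bound by NF-Y, a factor known to act beside SREBP.
Hmgcs1 (chr13:119690101-119690400, plus strand): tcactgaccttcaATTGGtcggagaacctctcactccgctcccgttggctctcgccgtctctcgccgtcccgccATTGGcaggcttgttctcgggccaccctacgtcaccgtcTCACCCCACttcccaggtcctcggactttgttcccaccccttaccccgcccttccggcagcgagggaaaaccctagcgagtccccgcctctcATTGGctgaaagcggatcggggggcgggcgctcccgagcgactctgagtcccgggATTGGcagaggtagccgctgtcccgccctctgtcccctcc
Idi1 (chr13:8885356-8885655, plus strand): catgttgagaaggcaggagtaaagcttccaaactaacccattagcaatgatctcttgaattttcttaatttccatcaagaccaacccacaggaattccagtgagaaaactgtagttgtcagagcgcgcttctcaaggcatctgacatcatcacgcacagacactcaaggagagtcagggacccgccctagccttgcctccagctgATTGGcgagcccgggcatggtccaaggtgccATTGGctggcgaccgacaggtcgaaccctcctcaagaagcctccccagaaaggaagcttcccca
Nsdhl (chrX:72918271-72918570, plus strand): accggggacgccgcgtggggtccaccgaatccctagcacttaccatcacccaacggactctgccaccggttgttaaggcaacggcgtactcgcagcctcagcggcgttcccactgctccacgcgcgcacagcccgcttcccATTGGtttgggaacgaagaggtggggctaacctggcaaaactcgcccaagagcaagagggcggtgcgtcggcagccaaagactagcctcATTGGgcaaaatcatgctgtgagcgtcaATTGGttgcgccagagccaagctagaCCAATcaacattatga
Dhcr7 (chr7:143822917-143823216, plus strand): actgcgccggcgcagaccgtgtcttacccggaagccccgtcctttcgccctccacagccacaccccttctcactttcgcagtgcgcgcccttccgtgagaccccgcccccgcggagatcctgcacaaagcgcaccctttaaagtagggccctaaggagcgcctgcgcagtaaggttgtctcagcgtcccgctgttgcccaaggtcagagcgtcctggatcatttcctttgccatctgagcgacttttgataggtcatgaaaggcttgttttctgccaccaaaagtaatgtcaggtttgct
Acss2 (chr2:155517793-155518092, plus strand): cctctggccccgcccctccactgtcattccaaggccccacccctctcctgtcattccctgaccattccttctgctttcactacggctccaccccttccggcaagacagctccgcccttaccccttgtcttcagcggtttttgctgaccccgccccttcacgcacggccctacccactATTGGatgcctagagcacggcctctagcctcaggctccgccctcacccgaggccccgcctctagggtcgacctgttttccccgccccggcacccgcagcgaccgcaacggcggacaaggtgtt

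Hmgcs1 held 4 CCAAT matches and the only TCACNCCAC match among the 28 members with an entry. Its letters were TCACCCCAC, with the first base 137 bases before the start. Of all genes with a promoter, 1.44% held that element. Nsdhl held 4 CCAAT matches, Idi1 2 and Acss2 1, while the Dhcr7 promoter shown held none. Counting every start listed for a gene, CCAAT was found in 13 of the 14 sterol path genes with an entry (92.9%), Acat2 being without it. It was found in 4 of 5 control genes, in 5 of 9 fatty acid genes and in 41.1% of 27025 genes. At the start nearest the authors' locus it was found in 11 of the 14, and Pmvk and Dhcr7 then had none. The shorter core CACNCCA, which lies within TCACNCCAC, was found in Acat2, Hmgcs1, Srebf2, Insig1 and Insig2, and in 20.6% of all genes. The GC box GGGCGG was found in 13 of 14 sterol path genes and in 38.2% of all genes, and the E-box CACGTG in 6 of 28 members and in 8.09% of all genes. A match of letters is not a measured site of binding, and the base composition of the promoters was not compared.

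The 6 control genes had small differences after IL-4, and none was called in either fit. Srebf2 was at 30.7 and 21.7 FPKM in Ern1f/f controls against 44.1 and 26.9 after IL-4, and 35.9 and 22.0 in Cre controls against 34.1 and 29.0 after IL-4. It was above its control in 3 pairs and below it in Cre cells of set 1 (-0.07), and the difference was 0.28 ± 0.10 (SE) (adjusted p = 0.122 with the block). Srebf1 was at 19.1 and 15.6 FPKM in Ern1f/f controls against 24.6 and 15.0 after IL-4, and 20.8 and 15.2 in Cre controls against 21.1 and 16.4 after IL-4. Its controls and IL-4 libraries overlapped, and its difference was 0.10 ± 0.09 (SE). Insig2, which holds Scap in the endoplasmic reticulum, had the smallest ratio of highest to lowest library of the 35 genes, 1.25. It was at 8.13 and 8.63 FPKM in Ern1f/f controls against 8.42 and 8.89 after IL-4, and 8.25 and 7.13 in Cre controls against 8.85 and 8.58 after IL-4. Of the control genes it alone was higher in all 4 pairs, by 0.05, 0.04, 0.09 and 0.24, which came to 0.10 ± 0.08 (SE) (adjusted p = 0.423 with the block). Insig1, itself a target of SREBP, was lower with IL-4 in set 1 (-0.20 and -0.43) and higher in set 2 (0.18 and 0.59). Stard4, a carrier of sterol between membranes, had 0.27 with 3 positive pairs, and the escort gene Scap had -0.11 with 3 negative pairs.

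Among the genes that feed fatty acid synthesis, Acss2 was lower after IL-4 in every pair. Acss2 (chromosome 2, 155518043 to 155562743, mm10) makes cytosolic acetyl-CoA from acetate. Its level was 1.77 and 3.92 FPKM in Ern1f/f controls against 0.915 and 2.29 after IL-4, and 2.17 and 3.66 in Cre controls against 1.22 and 2.63 after IL-4. Each IL-4 library was below its own control, and the set 2 libraries lay above the set 1 libraries of either treatment. Acss2 differed by -0.50 ± 0.09 (SE) (adjusted p = 0.0177 with the block, 0.564 without), with pairs of -0.53 and -0.58 in Ern1f/f and -0.51 and -0.36 in Cre cells. Me1, a source of NADPH, was lower in all 4 pairs as well, at -0.29 ± 0.14 (SE), but was not called (adjusted p = 0.227 with the block). Over all genes, 23.5% were lower in all 4 pairs. Acly, which makes acetyl-CoA from citrate, was at 40.2 and 34.0 FPKM in Ern1f/f controls against 47.3 and 35.4 after IL-4, and 46.6 and 34.1 in Cre controls against 43.0 and 44.6 after IL-4. Its treatments overlapped in both genotypes, and its difference was 0.14 ± 0.10 (SE). Aacs, which activates acetoacetate, had 0.02 with pairs of both signs.

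Of the enzymes that build and modify the chain, Acaca and Scd2 were higher in all 4 pairs and neither was called. Scd2, a desaturase that makes monounsaturated fatty acids, was at 11.0 and 12.8 FPKM in Ern1f/f controls against 22.2 and 18.4 after IL-4, and 16.1 and 24.0 in Cre controls against 21.6 and 36.9 after IL-4. Controls and IL-4 libraries overlapped, since the Cre control of set 2 was above 3 of the 4 IL-4 libraries. Scd2 (chromosome 19, 44293676 to 44306862, mm10) differed by 0.61 ± 0.16 (SE) (adjusted p = 0.0590 with the block, 0.288 without). Acaca, the acetyl-CoA carboxylase that makes malonyl-CoA, was at 4.44 and 4.53 FPKM in Ern1f/f controls against 6.90 and 5.30 after IL-4, and 5.56 and 4.99 in Cre controls against 6.63 and 7.07 after IL-4. The IL-4 libraries were above their own controls, and the Cre control of set 1 was above the Ern1f/f IL-4 library of set 2. Acaca differed by 0.34 ± 0.09 (SE) (adjusted p = 0.0563 with the block). Fasn, the fatty acid synthase, stood at 12.3 and 10.4 FPKM in Ern1f/f controls against 17.2 and 9.99 after IL-4, and 17.0 and 9.71 in Cre controls against 15.4 and 14.2 after IL-4. It was higher with IL-4 in Ern1f/f cells of set 1 and Cre cells of set 2 and lower in the other two pairs.

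Scd1 is a close paralog of Scd2, and reads shared by both could be split between them in the authors' estimates. Scd1 was listed at 1.93 and 0.493 FPKM in Ern1f/f controls against 0.950 and 0.899 after IL-4, and 3.19 and 0.819 in Cre controls against 1.67 and 2.03 after IL-4. Both IL-4 libraries of set 1 were below their controls and both of set 2 were above. Elovl6 was at 0.941 and 0.346 FPKM in Ern1f/f controls against 0.819 and 0.375 after IL-4, and 1.24 and 0.339 in Cre controls against 1.28 and 0.386 after IL-4, with a difference of 0.00 ± 0.12 (SE). Elovl5, an elongase of polyunsaturated fatty acids, and the desaturase genes Fads1 and Fads2 had differences of 0.09, -0.06 and 0.02. The 95% confidence interval of Fads2 ran from -0.59 to 0.62, which covers differences of either sign.

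Of 28 further genes of sterol and fatty acid metabolism, 23 passed the filter, none was called without the block, and with it none was called higher and 2 were called lower after IL-4, where 5.88% of all genes were called higher and 6.86% lower. These were Mylip, a ubiquitin ligase that targets the LDL receptor (log2 -1.04 ± 0.17, adjusted p = 0.0131 with the block), and Mid1ip1, a partner of acetyl-CoA carboxylase (log2 -0.65 ± 0.08, adjusted p = 0.00512 with the block). Mylip fell from 20.4 to 21.8 FPKM in controls to 6.80 to 14.5 FPKM with IL-4. Of 15 cell cycle genes in the same comparison, all 15 had a mean difference above 0, with a median of 0.47, and with the block Pcna, Mcm2, Mcm3, Mcm4, Mcm5, Mcm6, Mcm7 and Rrm2 were called higher, and none without it. Their summed level was 314.9 to 389.8 FPKM in controls and 519.6 to 611.2 FPKM with IL-4. The part of cell cycle genes in the sterol path result was not tested.

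The 4 libraries of set 2 differed from those of set 1 in many genes, and most members had lower levels in set 2. Over all genes 33.4% were called, 10.1% higher and 23.3% lower in set 2, with a median difference of -0.11. Of the members 13 were called, 12 lower and 1 higher, with a median over all 35 of -0.32. Scaling by the 75th percentile moved the median of all genes to -0.06 and that of the members to -0.27, and again called 12 members lower and 1 higher. The count of members was 8 without Cre control 1 and 8 without Cre control 2. Lower were Mvk, Cyp51, Tm7sf2 and Ebp of the sterol path, Srebf1, Srebf2 and Scap of the control genes, and Aacs, Fasn, Elovl5, Elovl6 and Fads1 of fatty acid synthesis. Of these, Elovl6 passed the filter only through libraries of set 1, so its call is no separate evidence of a set difference. Acss2 was higher in set 2. Summed fibroblast markers, higher in set 1, moved with this comparison, and their part in it was not tested.

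Scap, the escort of the SREBPs, had the smallest adjusted p of the members for the difference between the sets. Scap was at 18.5 and 12.9 FPKM in Ern1f/f controls against 20.4 and 11.3 after IL-4, and 19.8 and 11.8 in Cre controls against 17.0 and 10.4 after IL-4. All set 1 libraries lay above all set 2 libraries in each treatment and genotype, without overlap. Scap (chromosome 9, 110333293 to 110384946, mm10) fell by 0.66 ± 0.08 (SE, as for the values that follow) on the log2 scale in set 2 (adjusted p = 0.00241), and Srebf2 and Srebf1 fell by 0.52 ± 0.10 and 0.43 ± 0.09 (adjusted p = 0.0105 and 0.0131). In the sterol path Cyp51 fell by 0.78 ± 0.19 and Tm7sf2 by 0.61 ± 0.10 (adjusted p = 0.0216 and 0.00666). Tm7sf2 was at 6.60 and 4.06 FPKM in Ern1f/f controls against 5.46 and 3.87 after IL-4, and 8.33 and 3.86 in Cre controls against 6.62 and 4.31 after IL-4, and its set 1 libraries were all above its set 2 libraries. Mvk was at 6.50 and 5.43 FPKM in Ern1f/f controls against 7.77 and 5.99 after IL-4, and 8.71 and 4.40 in Cre controls against 9.48 and 6.93 after IL-4 and fell by 0.45 ± 0.11 (adjusted p = 0.0262). Ebp, at 26.6 and 16.7 FPKM in Ern1f/f controls against 23.1 and 19.5 after IL-4, and 27.7 and 15.8 in Cre controls against 28.2 and 25.1 after IL-4, fell by 0.45 ± 0.12 (adjusted p = 0.0319). In both genes a set 2 library with IL-4 reached the level of a set 1 library, so the sets overlapped.

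In fatty acid synthesis the sets did not overlap for Elovl6, Elovl5, Aacs, Fads1 and Acss2. Elovl6 fell by 0.60 ± 0.12 in set 2 (adjusted p = 0.0105), with 0.819 to 1.28 FPKM in set 1 and 0.339 to 0.386 in set 2. It reached 1 FPKM only in Cre control 1 (1.24) and Cre IL-4 1 (1.28), both of set 1. Elovl6 was thus tested only because of its level in set 1, so its call is no separate evidence of a set difference. Elovl5, at 21.3 and 16.6 FPKM in Ern1f/f controls against 22.8 and 17.2 after IL-4, and 23.8 and 15.8 in Cre controls against 23.7 and 18.4 after IL-4, fell by 0.41 ± 0.08 (adjusted p = 0.00916). Every set 2 library was below every set 1 library for both genes. Aacs, at 12.4 and 10.5 FPKM in Ern1f/f controls against 13.6 and 10.4 after IL-4, and 14.8 and 9.23 in Cre controls against 13.0 and 10.2 after IL-4, fell by 0.38 ± 0.09 (adjusted p = 0.0190). Fads1, at 29.3 and 21.8 FPKM in Ern1f/f controls against 26.9 and 21.5 after IL-4, and 32.9 and 21.8 in Cre controls against 27.1 and 24.7 after IL-4, fell by 0.36 ± 0.09 (adjusted p = 0.0280). For both genes every set 2 library was below every set 1 library. Fasn fell by 0.45 ± 0.13 (adjusted p = 0.0377). Acss2 rose by 0.72 ± 0.09 (SE) in set 2 (adjusted p = 0.00258), against the direction of the other called members.

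More members were called between the sets in controls than with IL-4. In controls 21 members were called, 20 lower and Acss2 higher, where 34.9% of all genes were called, 24.2% lower. With IL-4 8 members were called, 7 lower and Acss2 higher, where 29.9% of all genes were called, 20.2% lower. The median over the sterol path was -0.42 in controls and -0.09 with IL-4, and over all genes it was -0.11 and -0.10. In controls the genes called lower were Mvk, Idi1, Fdps, Cyp51, Tm7sf2, Nsdhl, Hsd17b7, Ebp and Sc5d, the control genes other than Insig2, and Aacs, Elovl5, Elovl6, Scd1, Fads1 and Fads2. With IL-4, Tm7sf2, Srebf1, Srebf2, Scap, Aacs, Elovl5 and Elovl6 were called lower. Both lists hold Elovl6, which passed the filter only through set 1. Cyp51 had -1.13 ± 0.17 (SE) in controls and -0.43 ± 0.17 (SE) with IL-4, and Insig1 -0.72 ± 0.12 (SE) and -0.01 ± 0.12 (SE). The difference between these differences is the one that called no member. In controls fewer members were called without Cre control 1, Cre control 2 or Ern1f/f control 2. With IL-4 fewer were called without Cre IL-4 1, Ern1f/f IL-4 2 or Cre IL-4 2. Each of these fits leaves a single library of that treatment in a set. The share of all genes called in them was not computed, so the falls cannot be read as particular to the members.

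**Figure D4:**
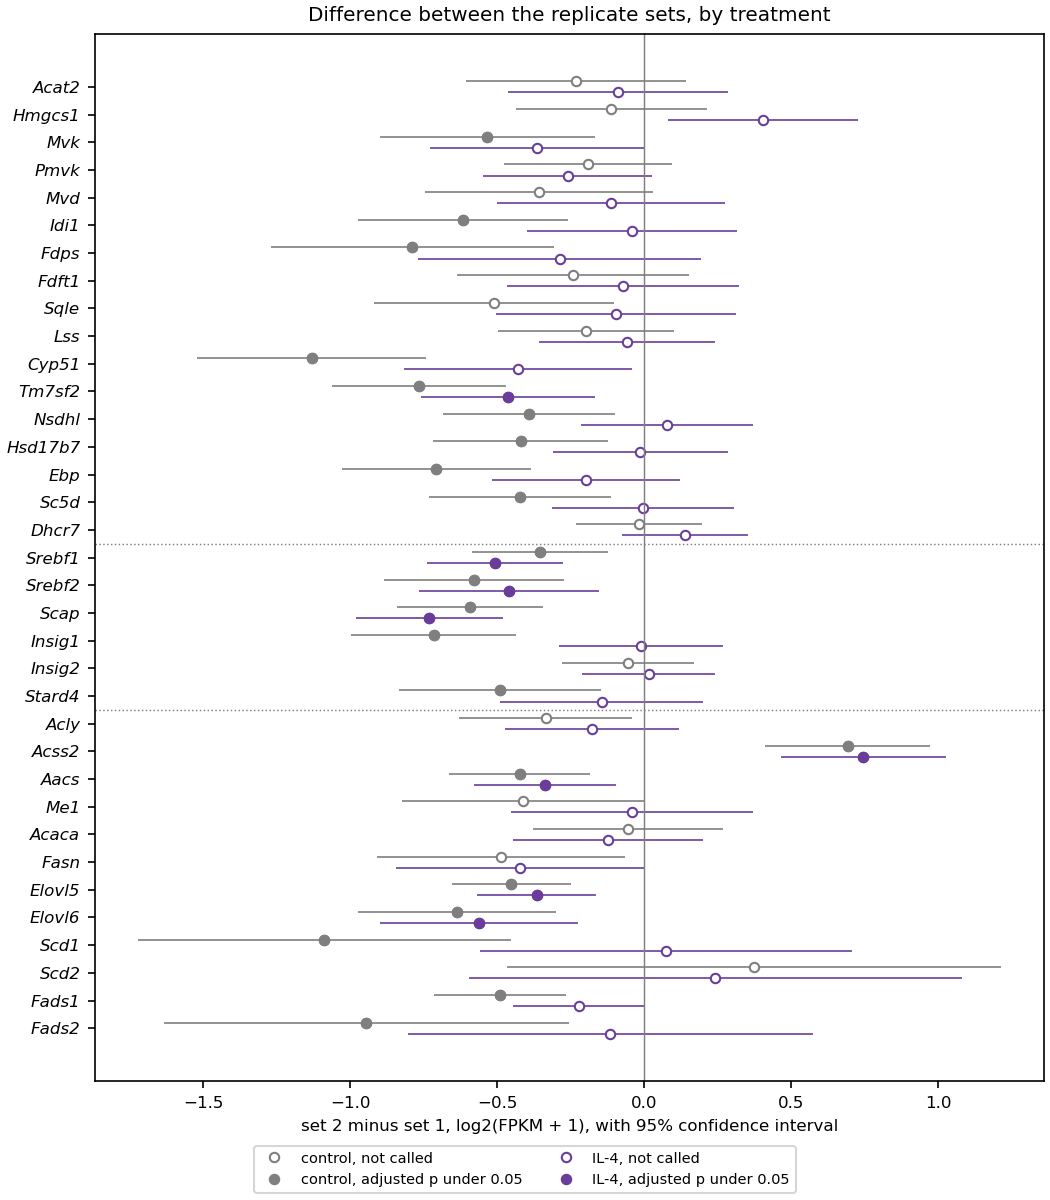
Set 2 minus set 1 on the log2(FPKM + 1) scale for the 35 genes, in controls (grey) and with IL-4 (purple), with the 95% confidence interval of the fit. Filled points passed an adjusted p of 0.05. In controls 20 genes are called lower in set 2 and Acss2 higher, and with IL-4 7 are called lower and Acss2 again higher. Elovl6, called lower in both, passed the filter only through set 1.

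No member was called for genotype by title in controls, with IL-4 or averaged, with or without the block, and the share of all genes called was at most 0.00915%. In limma, 27 genes in controls, 42 with IL-4 and 52 averaged over treatments had an unadjusted p below 0.05 when no block was used, and 137, 189 and 223 when it was. Averaged over treatments, Scd2 was the member among them in both fits. Scd2 was higher in Cre cells by 0.57 ± 0.16 (SE), with an adjusted p of 0.9998 with the block. It was higher in 3 of 4 pairs, and Scd1 and Fads1 were higher in all 4, Fads1 by 0.09 on average. These 2 of 35 members (5.71%) stand beside 6.55% of all genes. In controls of set 1 all 35 members were higher in the Cre library than in the Ern1f/f library, as were 7313 of all 10934 genes, and in set 2 the same held for 8 members and 4087 genes. With IL-4 it was 20 members and 4846 genes in set 1, and 30 members and 7338 genes in set 2. The genotype difference thus had opposite signs in the control libraries of the 2 sets for most members. The half-width of the 95% confidence interval of the averaged genotype difference had a median of 0.29 over the members with the block.

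The response to IL-4 was not shown to differ between the titled genotypes. The interaction called no gene in either fit, and an unadjusted p below 0.05 was found for 19 genes when no block was used and for 103 when it was, none of them a member. Its 95% confidence interval had a median half-width of 0.57 over the members with the block. That interval is not adjusted for the number of genes tested, so a call for a typical member needed a difference in response larger than that. Differences somewhat above 0.57 are thus not excluded either.

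Ratios of paralogs within a library gave 15 comparisons by an exact permutation test, two-sided, of 4 against 4 libraries, for which the smallest possible p is 0.0286. Libraries were permuted without regard to set. For IL-4 and genotype, the shift between the sets is therefore part of the spread, and these p-values do not measure the change within a set. None passed after adjustment. With that smallest p over 15 comparisons, a ratio that separated fully could not pass unless most of the others did too. The lack of calls therefore does not show that the ratios were unchanged. The Elovl5 to Elovl6 ratio was 18.4 to 27.8 in set 1 and 45.8 to 47.9 in set 2, a log2 difference of 1.12 (exact permutation p = 0.0286, adjusted p = 0.285). Elovl6 passed the filter only through set 1, where it was higher, so this ratio is tied to that filter. The Scd1 to Scd2 ratio was 0.0342 to 0.198, with a difference of -1.25 between the sets (exact permutation p = 0.0857, adjusted p = 0.321). Srebf1 to Srebf2 was 0.557 to 0.719 and differed by -0.18 after IL-4 (exact permutation p = 0.0571, adjusted p = 0.285). Insig1 to Insig2 was 2.19 to 3.82 and differed by -0.36 between the sets (exact permutation p = 0.0571, adjusted p = 0.285). Fads1 to Fads2 was 5.67 to 16.5, and its 3 comparisons had an adjusted p of 0.804 or more.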

How the data were processed

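RNA sequencing was analysed from 8 libraries, 2 in each of 4 groups taken from the titles. The deposited values are FPKM per gene, made by the authors with TopHat 1.4.1 and Cufflinks 1.3.0 on mm10, per the submitters' processing notes, with a lower and an upper confidence bound. FPKM holds no counts, so no count model was used, and depth was known only as implied by those bounds. Cufflinks assigns fragments shared by similar genes by estimate, so close paralogs such as Scd1 and Scd2 are less certain.

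Values were tested as log2(FPKM + 1) with limma 3.58.1 in R 4.3.3 (group means, variance trend, Benjamini-Hochberg adjustment over the 10934 genes that reached 1 FPKM in 2 or more libraries), after a check on simulated data. Python 3.11.15 and matplotlib 3.10.9 served for summaries and plots. A second fit had the replicate number as a block. Libraries with the same number deviated together: the correlation of their deviations from the group means was 0.688 to 0.827 over the 6 pairs of groups, and the first principal component, with 59.0% of the variance, separated the numbers. The pairing thus comes from the data, and the labels do not say what a number marks. Fits of set by treatment group the libraries as the genotype field does, and leaving libraries out of them was an alternative chosen after seeing the data.

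Every library's value was given for members called in any comparison with or without the block, for the 3 highest and 2 lowest by mean FPKM, and, in each role group, for the 3 with the largest IL-4 difference and the 2 with the largest set difference among those of 1 sign in all 4 pairs. The members and lists were chosen with earlier results of these data known. Alternatives were another pseudocount, another filter, scaling by the 75th percentile, no variance trend, only the groups compared, the genotype field, and leaving out each library. Promoters came from RefSeq (GRCm38.p6) and loci from the deposited tables.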

Additional observations from a re-analysis of the deposited data

Results flagged for a closer look

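The IL-4 difference of 3 genes had opposite signs in the sets, both titled genotypes of a set moving the same way. Insig1 differed by -0.20 and -0.43 in set 1 and by 0.18 and 0.59 in set 2, a difference between the sets of 0.70 on the log2 scale (limma, adjusted p = 0.110). For Scd1 the pairs were -0.59 and -0.65 in set 1 and 0.35 and 0.74 in set 2, with a difference between the sets of 1.16 (limma, adjusted p = 0.191). For Sc5d they were -0.19 and -0.25 in set 1 and 0.01 and 0.39 in set 2, with 0.42 between the sets (limma, adjusted p = 0.303). In none did the test of the difference pass the threshold. Summed fibroblast markers had the same pattern, lower with IL-4 in both pairs of set 1 (281.3 to 141.1 and 726.5 to 342.2 FPKM) and higher in both of set 2 (12.6 to 31.2 and 10.9 to 79.0 FPKM). Their part in these values was not tested, and the sets cannot be told apart from the genotype field.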

How the results depend on the processing

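Most calls depended on how the set difference was handled. With the replicate number as a block, calls rose from 0 to 232 genes (0 to 1 member) for IL-4 in Ern1f/f cells, from 6 to 363 (0 to 1 member) in Cre cells and from 92 to 1393 (1 to 7 members) averaged over genotypes. The block gave 1 gene for genotype with IL-4 and changed no other count of members. Grouped by the genotype field, IL-4 called 2264 genes and 2 members in Ern1f/f, 1273 and 8 in Cre, and 2919 and 12 averaged. By that field genotype called 3816 genes and 21 members in controls, 3273 and 8 with IL-4 and 5240 and 18 averaged, and the interaction called 106 genes. Scaling by the 75th percentile called 11 genes for IL-4 in Ern1f/f cells and 13 in Cre cells. The 6 genes in Cre cells fell to 0 under each of 4 settings, namely the 0.1 pseudocount, no filter, no variance trend and a fit of only the groups compared. Without a filter the set difference called 8 members in place of 13. The cause of these changes was not tested.

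In Ern1f/f cells the median IL-4 difference of the sterol path, 0.35, became 0.44 with a pseudocount of 0.1, 0.22 with a pseudocount of 5 and 0.40 with 75th percentile scaling. That of fatty acid synthesis, 0.01, became 0.0551 with a filter on the mean and 0.0464 with 75th percentile scaling. Leaving out 1 library gave -0.15 to 0.24 for fatty acid synthesis, 0.0046 to 0.43 for the control genes and 0.27 to 0.38 for the sterol path. In Cre cells it gave -0.26 to 0.37 for fatty acid synthesis.

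Leaving out 1 library without the block left 0 to 1 genes for IL-4 in Ern1f/f cells, 0 to 1 in Cre cells and 3 to 49 averaged, with 0 members. Dhcr7 was then not called without any single library (adjusted p 0.0745 to 0.131), and with the block it was called each time (0.00838 to 0.0215). With the block the counts were 6 to 277 genes and 0 to 1 members in Ern1f/f cells, 2 to 325 and 0 to 1 in Cre cells, and 471 to 1222 and 1 to 9 averaged. Genotype then called 0 to 2 genes in controls, 0 with IL-4 and 0 to 1 averaged, and the interaction 0 to 1. The set difference called 2344 to 2612 genes and 8 to 13 members. Members called were 1 to 2 for IL-4 in set 1, 1 to 8 in set 2, 6 to 20 for the set difference in controls and 3 to 8 with IL-4.

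Leaving out 1 library turned the sign of some paralog ratios, none of which was called. For genotype the log2 ratio ran from -0.22 to 0.76 for Scd1 to Scd2, -0.11 to 0.16 for Insig1 to Insig2, -0.0577 to 0.0772 for Srebf1 to Srebf2 and -0.43 to 0.0255 for Elovl5 to Elovl6. For IL-4 it ran from -0.20 to 0.0672 for Insig1 to Insig2, -0.42 to 0.0942 for Fads1 to Fads2 and -0.18 to 0.33 for Elovl5 to Elovl6. Over all alternatives together, 289 single-gene values kept their side of the threshold. A call was lost in 44, on leaving out a library or the filter, and gained in 16, all on adding the block or using the genotype field. Of the values of the IL-4 fit with the block, leaving out 1 library kept 22 and lost 50.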

Other observations

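Beyond the 35 genes, 8 of the 23 tested genes of the pathway list were called between the sets, 1 higher and 7 lower in set 2, where 33.4% of all genes were called. Abcg1, which exports cholesterol, was higher in set 2 by 0.38 on the log2 scale. Among those lower were Nr1h3 and Nr1h2, which encode the oxysterol receptors LXRα and LXRβ (-1.26 and -0.38), Lbr (-0.60), Lpin1 (-0.48), Mbtps1, a protease that cuts SREBPs (-0.44), and Tmem97 (-0.44).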
